A study of Mus musculus with 4 samples.

Results

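The genes described here encode 3 families of secreted guidance cues and their receptors, namely the Slit proteins with the Robo receptors, netrin-1 with its receptor DCC, and the chemokine CXCL12 with its receptors CXCR4 and ACKR3. They are *Slit1*, *Slit2*, *Slit3*, *Robo1*, *Robo2*, *Ntn1*, *Dcc*, *Cxcl12*, *Cxcr4* and *Ackr3*, 10 of the 55573 Ensembl genes counted, and their rows were found by symbol in GENCODE M21. RNA was sequenced from tdTomato-positive cells, labelled as premature interneurons, of *Hmx3-Cre/tdTomato/Dnmt1* mouse embryos on a C57BL/6J background at embryonic day 16 (E16), after fluorescence-activated cell sorting (FACS). In all embryos, Cre recombinase under control of *Hmx3*, a homeobox gene of postmitotic cells of the preoptic area (POA), switched on the tdTomato reporter. In the *Dnmt1* knockout (KO) group, Cre additionally removed loxP-flanked exons of *Dnmt1*, which gives a null allele, whereas the wild-type (WT) group carried wild-type *Dnmt1*. The dissected region is the basal telencephalon in the sample labels and the POA in the methods of the study. The cells came from pools of 12 WT and 6 KO embryos, and each genotype had 2 libraries. The labels describe them as biological replicates, whereas the methods of the study describe technical duplicates of pooled samples, so that p-values and SDs measure only how far the libraries lay apart, which may be technical.

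Slit proteins are large secreted glycoproteins that mostly repel growing axons and migrating neurons through Robo receptors. Netrin-1 attracts or repels depending on the receptors that a cell carries, with DCC mediating attraction and UNC5 proteins taking part in repulsion. CXCL12 keeps tangentially migrating cortical interneurons in their migratory streams through CXCR4, a G protein-coupled receptor, while ACKR3 binds the same chemokine, signals through arrestins and removes it from the surroundings. The comparison asked whether the transcripts of these cues and receptors differed between sorted cells of the 2 *Dnmt1* genotypes, *Dnmt1* being the gene of the maintenance DNA methyltransferase.

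The libraries held 8075102 to 9995968 counts, and a floor of 3 counts was 0.294 to 0.372 CPM (counts over the TMM-scaled library size), for counting error only. WT replicate 1 stood apart, with 8.66% of its counts on mitochondrial rRNA against 1.51% to 2.32% in the other libraries, and the 2 WT libraries differed more from each other than the KO libraries did (biological coefficient of variation 0.234 and 0.103). The targeted gene *Dnmt1* had 3103 and 4557 counts in WT, against 2383 and 2552 in KO, with a log2 fold change (log2FC) of -0.56 (edgeR adjusted p = 0.0511). It was called lower in 10 of 15 alternatives, among them DESeq2 (adjusted p = 0.00843) and limma-voom (adjusted p = 0.0358), and in neither fit that left out a KO library. A gene count also includes reads from exons outside the deleted ones, and reads within those exons were not counted apart. Transcripts of *Gad1*, *Gad2* and *Slc32a1*, which mark GABAergic neurons, and of *Hmx3* itself were present in every library, with 1066 to 1552 counts for *Gad1* and 604 to 919 for *Hmx3*. The summed level of 10 astrocyte markers was 211 and 215 CPM in WT, against 4228 and 4322 CPM in KO, and all 10 were called higher in KO by edgeR (adjusted p under 0.05). *Gfap*, a defining astrocyte marker, had 0 counts in both WT libraries.

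All 10 guidance genes passed the filter on low counts, and their CPM values, which grow with transcript length as well as with abundance, covered a wide range. The receptor genes *Robo1* and *Dcc* had 298 to 375 and 215 to 368 CPM. *Robo2*, *Slit1* and *Slit2* lay between 97.1 and 252 CPM and *Ntn1* between 24.2 and 33.0 CPM. *Slit3*, *Cxcl12*, *Cxcr4* and *Ackr3* stayed between 5.23 and 12.9 CPM. Among the 10 genes, 0 differed between KO and WT at an edgeR adjusted p under 0.05, with 2 genes, *Robo2* and *Dcc*, at an unadjusted p under 0.05. DESeq2 called both of them lower in KO, and limma-voom called *Robo2* alone. Over all 16832 genes tested with edgeR, 7.90% were called, 7.33% as higher and 0.570% as lower in KO, and 22.7% had an unadjusted p under 0.05, with 8.01% lower in KO. DESeq2 called 8.87% of the tested genes, 7.40% higher and 1.47% lower, and limma-voom called 7.81%, with 7.21% higher and 0.594% lower. When counts were corrected for length and GC content of the genes, edgeR called 16.6%, with 11.2% higher and 5.36% lower, so that 67.7% of the calls were higher in KO in place of 92.8%, and *Robo2* and *Dcc* were among the lower ones. Without either KO library, 0 of the 10 genes were called by edgeR, with 0.656% (without KO replicate 1) and 0.288% (without KO replicate 2) of all tested genes called lower. Without WT replicate 1, *Robo2* and *Dcc* were called lower, beside 7.15% of all tested genes. Without WT replicate 2, *Slit2* was called lower as well (3 genes), beside 12.0% of all tested genes.

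**Figure D1:**
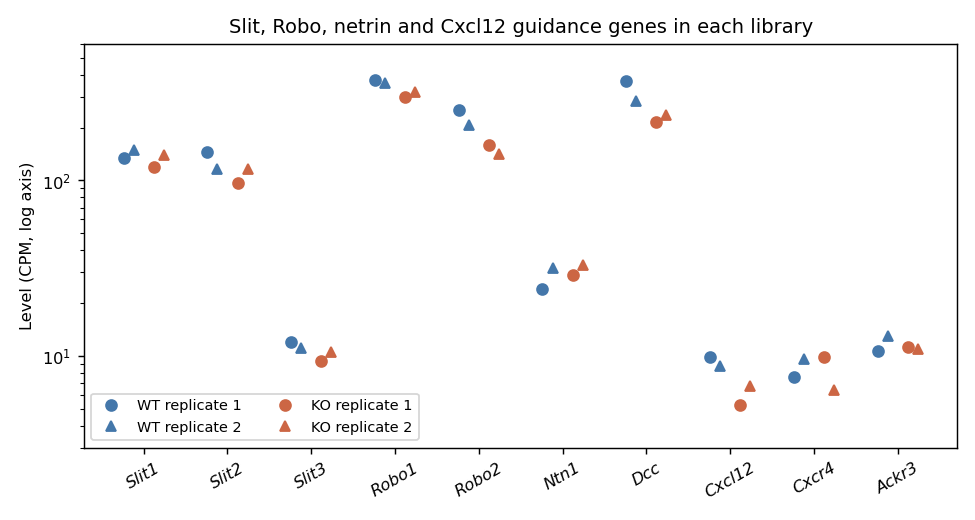
Level of each guidance gene in each library, in TMM-scaled CPM on a log axis, with 1 symbol per library (circles replicate 1, triangles replicate 2) in WT and KO. CPM is not divided by gene length, and both KO libraries lie below both WT libraries for *Robo2*, *Dcc*, *Robo1*, *Slit3* and *Cxcl12*.

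The fitted log2FC was below 0 in 9 of the 10 genes, with a median of -0.24. Over all tested genes the median was -0.03, and 52.4% lay below 0. In 5 genes both KO libraries were lower than both WT libraries, and in 0 genes both were higher, whereas over all tested genes these shares were 25.2% and 28.3%. As the libraries are bulk samples, fewer cells of a type and less RNA per cell cannot be told apart.

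The Robo receptors are single-pass transmembrane proteins of the immunoglobulin superfamily that bind Slit proteins. *Robo2* (chromosome 16, 73891839 to 74411825, minus strand, all positions on GRCm38) had 2027 and 2126 counts in WT, against 1343 and 1284 counts in KO. This corresponded to 252 and 208 CPM in WT, against 160 and 141 CPM in KO, so that both KO libraries were lower than both WT libraries. Mean levels were 230 ± 30.6 CPM for WT and 151 ± 12.9 CPM for KO (SD, n = 2 each). The log2FC was -0.61 (standard error 0.16, 95% interval -0.97 to -0.25), or 34.5% less, and edgeR gave an adjusted p of 0.0526. *Robo2* thus stayed just outside the threshold with edgeR, while DESeq2 gave an adjusted p of 0.00832 and limma-voom one of 0.0457. The log2FC was smallest in size, with -0.41 (edgeR adjusted p = 0.0221), when length and GC content were corrected for. A lower log2FC than that of *Robo2* was found in 6.52% of all tested genes.

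Its paralogue *Robo1* lies on the same chromosome from 72308306 to 73046095 on the plus strand. *Robo1* had 375 and 361 CPM in WT, against 298 and 318 CPM in KO. The groups did not overlap here either, but the difference was smaller, with a log2FC of -0.25 (standard error 0.13, 95% interval -0.56 to 0.05, edgeR adjusted p = 0.299). Per kilobase of exonic length, *Robo2* stood at 0.653 and 0.561 of the level of *Robo1* in the WT libraries and at 0.52 and 0.432 in the KO libraries. This ratio was lower in both KO libraries, for which the exact two-sided permutation test gave p = 0.333, the smallest value that 2 libraries against 2 allow.

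The sequences before the transcription starts of *Robo1* and *Robo2* are shown because *Robo2* was the gene nearest to the edgeR threshold and *Robo1* is its paralogue, and because CG dinucleotides, the main target of DNMT1, can be counted in them. No methylation was measured in these libraries. Each is the 250 bases before a RefSeq start on GRCm38.p6, 5′ to 3′ on the strand of the gene, with CG in capitals. The window of *Robo1* is chr16:72662899-72663148 and lies inside the annotated *Robo1* gene, at a downstream start. The window of *Robo2* is chr16:74411826-74412075 on the minus strand, directly before the start of the annotated gene.

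Robo1: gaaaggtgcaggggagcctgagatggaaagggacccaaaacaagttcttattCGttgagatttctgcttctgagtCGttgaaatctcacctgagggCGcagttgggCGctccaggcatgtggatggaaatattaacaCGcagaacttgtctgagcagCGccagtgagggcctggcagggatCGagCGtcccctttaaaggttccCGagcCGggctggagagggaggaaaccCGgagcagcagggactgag
Robo2: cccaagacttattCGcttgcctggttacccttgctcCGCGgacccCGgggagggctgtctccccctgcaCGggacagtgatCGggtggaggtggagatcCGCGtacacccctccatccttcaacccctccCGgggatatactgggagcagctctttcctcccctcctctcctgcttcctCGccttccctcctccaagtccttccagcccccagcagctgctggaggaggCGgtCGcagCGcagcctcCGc

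*Robo1* held 11 CG and *Robo2* 14 CG in these windows. Of all 32851 RefSeq windows of this length, 92.1% held CG at least once and the median was 6, while 35.6% held at least 11 and 29.4% at least 14. RefSeq gives *Robo2* a pair of further starts, at 75092770 and 75447293, outside the GENCODE M21 gene, with 4 and 8 CG in their windows. Whether exons near these starts entered the counts is not given in the sources used here. Of the 10 guidance genes, 7 had a window. *Slit3* held the most CG with 35 (as many or more in 2.97% of all windows), followed by *Slit2* with 25 (10.7%), *Cxcr4* with 19 (19.7%), *Cxcl12* with 14 (29.4%) and *Ackr3* with 7 (46.3%).

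DCC, the attractive netrin receptor, is encoded by one of the longest genes in the genome. *Dcc* spans 1097 kb of chromosome 18 from 71253634 to 72351069, and 0.256% of the tested genes have a longer span. It had 2963 and 2906 counts in WT, against 1811 and 2154 counts in KO, or 368 and 285 CPM in WT, against 215 and 237 CPM in KO. Both KO libraries were lower, and the WT libraries differed more from each other than the KO libraries did. The log2FC of *Dcc* was -0.53 (standard error 0.16, 95% interval -0.91 to -0.15, edgeR adjusted p = 0.103), or 30.6% less. With DESeq2 the adjusted p was 0.0322. Without WT replicate 1, the library rich in mitochondrial rRNA, the log2FC of *Dcc* was -0.34 and that of *Robo2* was -0.48. Without WT replicate 2 they were -0.71 and -0.75. The size of both differences therefore depended on which WT library was used. Their direction could hardly turn in these fits, because both KO libraries were already lower than both WT libraries.

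*Ntn1*, the gene of the ligand of DCC on chromosome 11 (68209364 to 68400823, minus strand), was the only one of the 10 genes with a fitted log2FC above 0. It had 24.2 and 31.8 CPM in WT, against 29.0 and 33.0 CPM in KO, and the groups overlapped. Its log2FC was 0.14 (standard error 0.20, 95% interval -0.32 to 0.60, edgeR adjusted p = 0.716), and the sign turned (-0.04) without WT replicate 1. The library-wise ratio of *Dcc* to *Ntn1* per kilobase was 7.24 and 4.26 in WT, against 3.54 and 3.42 in KO, so that WT replicate 1 alone set much of the distance between the genotypes (exact two-sided permutation p = 0.333, the smallest possible).

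**Figure D2:**
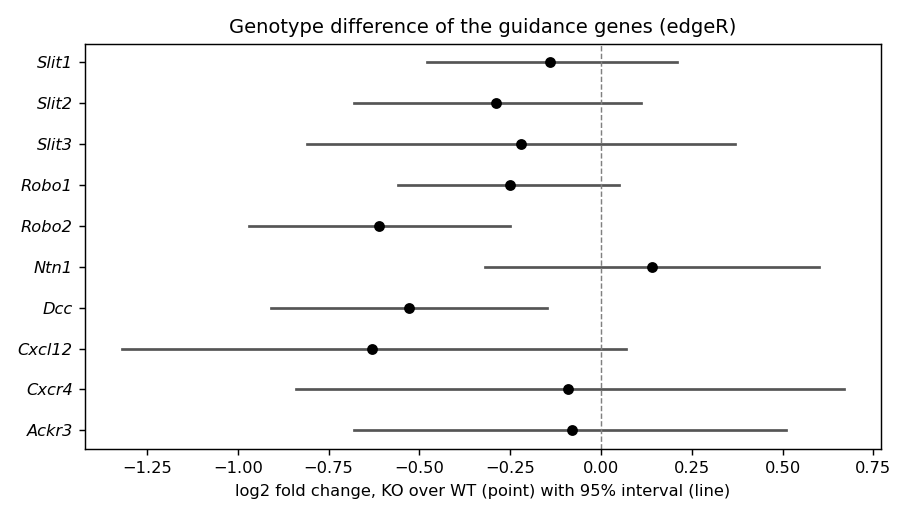
Log2FC of each guidance gene, KO over WT (points), with its 95% interval from the edgeR fit (lines), not adjusted for the number of genes. The intervals of *Robo2* (-0.97 to -0.25) and *Dcc* (-0.91 to -0.15) lie below 0 and the other 8 include 0.

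The Slit genes encode ligands of the Robo receptors. *Slit1* (chromosome 19, 41600257 to 41743665, minus strand) had 135 and 149 CPM in WT, against 120 and 139 CPM in KO. *Slit2* (chromosome 5, 47983138 to 48307733, plus strand) had 145 and 116 CPM in WT, against 97.1 and 117 CPM in KO. In both genes 1 KO library lay inside the range of the WT libraries. *Slit3* (chromosome 11, 35121224 to 35708507, plus strand) had 97 and 113 counts in WT, against 79 and 95 counts in KO, or 12.0 and 11.1 CPM against 9.39 and 10.5 CPM. Here the groups did not overlap, although the distance between the nearest libraries was small. The log2FCs were -0.14 for *Slit1*, -0.29 for *Slit2* and -0.22 for *Slit3* (standard errors 0.15, 0.17 and 0.26, edgeR adjusted p = 0.626, 0.364 and 0.658). Their 95% intervals reached from -0.48 to 0.21, from -0.68 to 0.11 and from -0.81 to 0.37, and all included 0.

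CXCL12 is a chemokine that meningeal and intermediate zone cells release in the embryonic forebrain. *Cxcl12* (chromosome 6, 117168535 to 117181367, plus strand) was the cue with the lowest level per kilobase, with 79 and 89 counts in WT, against 44 and 61 counts in KO. Both KO libraries were lower, with 5.23 and 6.72 CPM against 9.81 and 8.72 CPM. The log2FC of -0.63 was close in size to that of *Robo2*, but its standard error of 0.30 was larger (95% interval -1.32 to 0.07, edgeR adjusted p = 0.26). Markers of meningeal fibroblasts, a known source of CXCL12 that the sort for tdTomato was meant to leave out, summed to 32.4 and 35.4 CPM in WT, against 45.7 and 40.1 CPM in KO. Of these 6 markers 4 were tested, of which 3 had a log2FC above 0 and 1 was called higher in KO by edgeR. Their part in the level of *Cxcl12* was not tested.

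The receptor genes of this chemokine showed no difference beyond the spread of the libraries. *Cxcr4* (chromosome 1, 128588199 to 128592293, minus strand) had 61 and 98 counts in WT, against 83 and 58 counts in KO, and each group contained a high and a low library. *Ackr3* (chromosome 1, 90203980 to 90216751, plus strand) had 85 and 132 counts in WT, against 95 and 99 counts in KO, with both KO libraries between the WT libraries in CPM. The log2FCs were -0.09 (95% interval -0.84 to 0.67, edgeR adjusted p = 0.909) for *Cxcr4* and -0.08 (95% interval -0.68 to 0.51, edgeR adjusted p = 0.883) for *Ackr3*, and both turned sign when library size alone was used for scaling. Per kilobase, *Ackr3* stood at 0.752 and 0.727 of the level of *Cxcr4* in WT and at 0.618 and 0.922 in KO.

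Levels were compared between genes per kilobase of merged exons, a length that counts the exons of all annotated isoforms and therefore lowers the value of genes such as *Slit2* with 25433 such bases. On this scale, the mean over the 4 libraries was 22.9 CPM per kilobase for *Slit1*, 21 for *Dcc* and 20.5 for *Robo1*, and the ranges of these 3 genes overlapped. *Robo2* followed with 11.2 CPM per kilobase (8.33 to 14.8), below every value of *Robo1* and of *Slit1*. *Ntn1* (4.70 CPM per kilobase), *Slit2* (4.67), *Cxcr4* (4.62) and *Ackr3* (3.41) formed an order in which neighbours overlapped. *Slit3* (1.77 CPM per kilobase) and *Cxcl12* (0.932) were lowest, without overlap of their ranges. *Slit1* exceeded 89.6% and *Cxcl12* 15% of the tested genes in this measure. The bulk libraries thus held transcripts of the cues as well as of the receptors, and which cells carried them was not tested. Per kilobase, *Slit1* stood at 4.02 to 5.50 times the level of *Slit2*, a ratio that depends on merged lengths of 5921 and 25433 bases. In CPM, the ranges of *Slit1* (120 to 149) and *Slit2* (97.1 to 145) overlapped.

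*Dcc*, *Robo1*, *Slit3*, *Robo2* and *Slit2* span at least 300 kb, a limit set after the spans were seen. Of the 535 tested genes of such a span, 1.5% were called lower and 11.2% higher in KO, against 0.540% and 7.20% of the shorter genes, and their median log2FC was -0.05. The exons of the 10 genes share no base with exons of other genes in GENCODE M21.

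**Figure D3:**
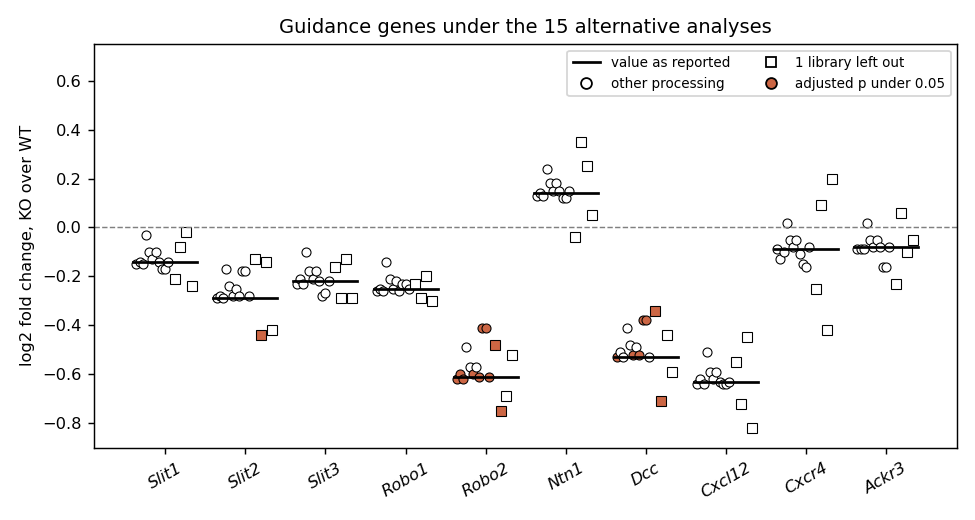
Log2FC of each guidance gene (vertical axis, KO over WT) as reported (bar), under 11 other ways of processing (circles) and with 1 library left out (squares), filled where the adjusted p was under 0.05. *Robo2* stays between -0.75 and -0.41 and *Dcc* between -0.71 and -0.34, whereas *Cxcr4*, *Ackr3* and *Ntn1* fall on both sides of 0.

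Further genes that act with these cues and receptors were examined as 3 lists with 43 genes, of which 39 were tested and *Robo4*, *Ntn5*, *Dpp4* and *Cd74* were too low in counts. In edgeR, 5 of them were higher and 1 was lower in KO at an adjusted p under 0.05 (7.33% and 0.570% of all genes), and their median log2FC was -0.03, as over all genes. The 13 tested partners of Slit and Robo, among them the GTPase-inactivating srGAP proteins and the Abl kinases, gave 0 calls with edgeR and *Srgap3* alone at an unadjusted p under 0.05. In other edgeR fits *Nell2* was called lower (with the length and GC correction, with a block for replicate number added to it, and without WT replicate 1). *Srgap3* was called higher (with block and correction together and without WT replicate 1) and *Flrt3* lower (without WT replicate 2). The log2FCs of the list lay between -0.79 and 0.39. *Srgap3* had 291 and 227 CPM in WT, against 319 and 358 CPM in KO (log2FC 0.39, edgeR adjusted p = 0.212).

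Among the 16 tested netrin partners, *Dock1* and *Rgma* rose and *Unc5d* fell. Of the 16, 4 had an unadjusted p under 0.05 with edgeR, against 22.7% of all tested genes. The fourth was *Ntn4*, the gene of another netrin, with 18 and 20.7 CPM in WT and 29.1 and 32.7 CPM in KO (log2FC 0.67, edgeR adjusted p = 0.0747), which was called higher with library size only, without a filter, with the length and GC correction and without either WT library. *Unc5d* encodes a receptor of the UNC5 family, and had 125 and 107 CPM in WT, against 72.6 and 70.7 CPM in KO, a log2FC of -0.69 (standard error 0.15, edgeR adjusted p = 0.0283). Its call was lost without either KO library, at a log2FC of -0.70 and -0.67, and when library size alone was used for scaling (log2FC -0.58, edgeR adjusted p = 0.0583). The other UNC5 receptors did not pass the test, with log2FCs of -0.18 for *Unc5a*, 0.15 for *Unc5b* and -0.22 for *Unc5c*. Per kilobase, *Unc5d* stood at 2.85 and 2.92 times the level of *Unc5c* in WT and at 2.06 and 2.09 times in KO (exact two-sided permutation p = 0.333, the smallest possible). *Dock1*, the gene of a Rac activator downstream of DCC, had 31.0 and 38.3 CPM in WT, against 132 and 136 CPM in KO (log2FC 1.94, standard error 0.16, edgeR adjusted p = 0.000208). *Rgma*, the gene of a ligand of the DCC relative neogenin, had 62.1 and 50.2 CPM in WT, against 100 and 127 CPM in KO (log2FC 1.02, standard error 0.18, edgeR adjusted p = 0.0113). Antisense *A730056A06Rik* overlaps 4.65% of the exonic bases of *Rgma*, where reads cannot be told apart as the strand setting is not given, and without KO replicate 2 the call of *Rgma* was lost (edgeR adjusted p = 0.0661). *Trio*, with the highest CPM of this list averaged over all 4 libraries, had 709 to 833 CPM in all libraries and a log2FC of -0.07 (edgeR adjusted p = 0.833).

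Among the 10 tested partners of the CXCL12 system, *Cxcl14*, *Grk3* and *Arrb1* rose and 0 fell with edgeR. Of the 10, 4 had an unadjusted p under 0.05, against 22.7% of all tested genes. The fourth was *Gnai3*, another gene of an inhibitory G protein subunit, with 164 and 123 CPM in WT and 105 and 95.2 CPM in KO (log2FC -0.52, 95% interval -0.93 to -0.12, edgeR adjusted p = 0.123), which was called lower without a filter, with the length and GC correction and without WT replicate 2. *Cxcl14*, which encodes another chemokine of the CXC family, had 18 and 17 counts in WT, against 427 and 392 counts in KO. On the log2 scale this was the largest difference among the tested guidance and partner genes (log2FC 4.60, standard error 0.26, edgeR adjusted p = 2.04e-05). Mean levels were 1.95 ± 0.402 CPM for WT and 47.0 ± 5.37 CPM for KO (SD, n = 2 each). *Grk3*, the gene of a kinase that phosphorylates activated G protein-coupled receptors, had 64.4 and 52.9 CPM in WT, against 179 and 193 CPM in KO (log2FC 1.67, edgeR adjusted p = 0.000421), while its relative *Grk2* had a log2FC of -0.14. *Arrb1* had 161 and 176 CPM in WT, against 258 and 268 CPM in KO (log2FC 0.64, edgeR adjusted p = 0.0259), against -0.02 for *Arrb2*. Both encode arrestins, and the call of *Arrb1* was lost without either KO library, at a log2FC of 0.68 and 0.62. *Gnai2*, an inhibitory G protein subunit gene, had a log2FC of -0.03 (edgeR adjusted p = 0.933).

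**Figure D4:**
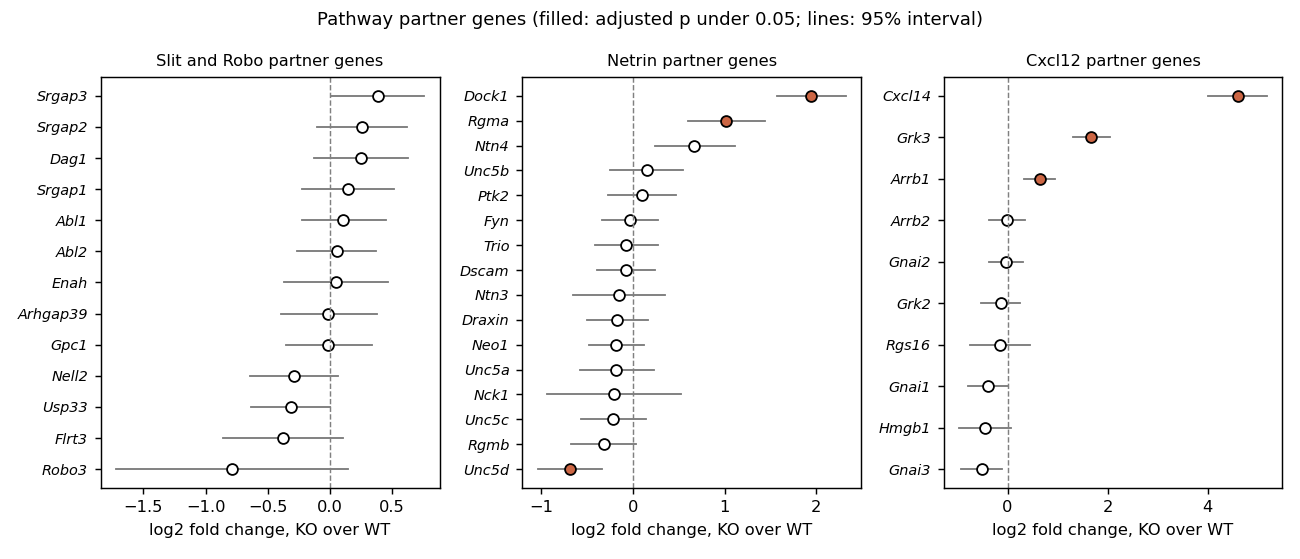
Log2FC, KO over WT, of the tested partner genes of the Slit and Robo, netrin and CXCL12 systems (horizontal axes, which differ in range), with 95% intervals as lines and filled points at an edgeR adjusted p under 0.05. *Cxcl14* (4.60), *Dock1* (1.94), *Grk3* (1.67), *Rgma* (1.02) and *Arrb1* (0.64) were called higher and *Unc5d* (-0.69) was called lower.

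The windows before the starts of *Cxcl14* and *Dock1*, the partners with the highest log2FCs, are shown in the same way. They are chr13:56296552-56296801 on the minus strand for *Cxcl14* and chr7:134670437-134670686 on the plus strand for *Dock1*.

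Cxcl14: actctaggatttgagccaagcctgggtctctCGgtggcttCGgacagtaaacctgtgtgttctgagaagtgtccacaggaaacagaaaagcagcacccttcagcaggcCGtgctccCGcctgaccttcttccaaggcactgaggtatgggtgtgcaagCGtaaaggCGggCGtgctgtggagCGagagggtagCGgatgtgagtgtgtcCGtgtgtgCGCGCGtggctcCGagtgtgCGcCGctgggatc
Dock1: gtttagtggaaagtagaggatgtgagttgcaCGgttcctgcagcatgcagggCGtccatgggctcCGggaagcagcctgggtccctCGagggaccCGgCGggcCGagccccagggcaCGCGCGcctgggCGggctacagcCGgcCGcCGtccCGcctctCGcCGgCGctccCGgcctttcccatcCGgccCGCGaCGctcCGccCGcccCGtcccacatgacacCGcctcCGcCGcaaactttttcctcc

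*Cxcl14* held 16 CG (as many or more in 25.4% of all windows) and *Dock1* 29 CG (6.78%). CG in these windows is a description of the sequence, and no state of methylation follows from it.

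Values of marker lists for the cell types that the sort could hold are set beside these results. Of 12 markers of neurons in general, 3 were called lower and 0 higher in KO with edgeR. An unadjusted p under 0.05 was found for 9 of them, against 22.7% of all tested genes. The 12 markers summed to 6229 to 6781 CPM in WT and 4565 to 4624 CPM in KO, and their median log2FC was -0.56. The log2FCs of *Robo2* (-0.61) and *Dcc* (-0.53) were of about the size of this median. The 8 GABAergic markers had a median of -0.25, close to that of the guidance genes, and the 5 tested markers of the *Hmx3* lineage one of -0.36, with 0 calls in both lists (2 and 1 genes at an unadjusted p under 0.05). Besides the astrocyte list, with a median of 4.70, 5 of 8 oligodendrocyte markers and 7 of 8 mural cell markers were called higher, with medians of 1.46 and 2.61. Oligodendrocyte precursor markers summed to 1427 and 1481 CPM in WT, against 1788 and 1878 CPM in KO (1 of 5 called higher), and markers of radial glia and dividing cells to 1385 to 1399 CPM in WT and 1977 to 2111 CPM in KO (2 of 10 called higher, median log2FC 0.34). *Slc1a3*, a glutamate transporter gene also used by astrocytes, held most of that rise with 70.3 and 76.5 CPM in WT and 593 and 546 CPM in KO, while *Mki67*, a marker of dividing cells, had a log2FC of -0.04. Endothelial markers summed to 17.5 and 18.6 CPM in WT and 19.6 and 21.6 CPM in KO, with 0 of 7 tested called by edgeR (4 at an unadjusted p under 0.05) and a median log2FC of 0.57. Microglial markers summed to 26.9 and 30.4 CPM in WT and 51.5 and 58.8 CPM in KO, with a median log2FC of 1.05, and 1 of 6 tested was called higher by edgeR (5 at an unadjusted p under 0.05). The part of these cell types in the differences of *Robo2*, *Dcc*, *Unc5d*, *Cxcl14*, *Dock1* and *Grk3* was not tested.

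**Figure D5:**
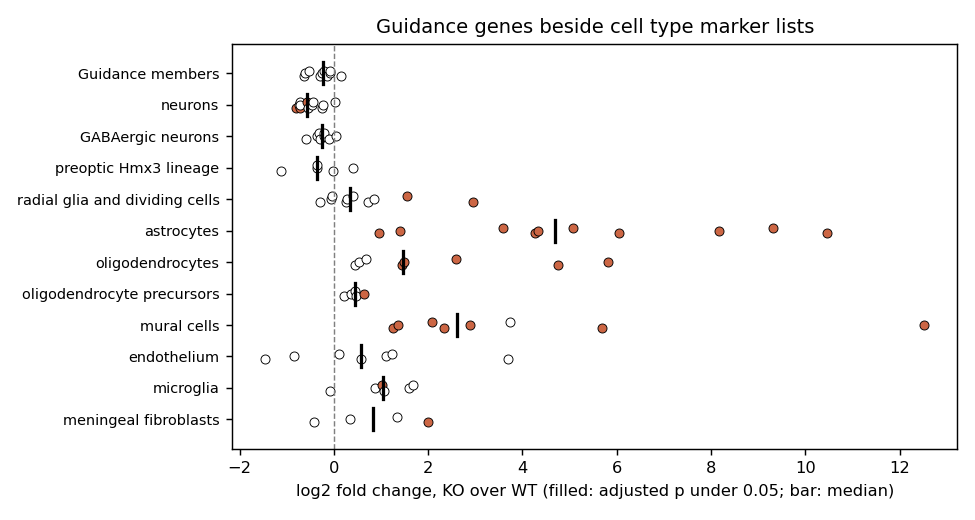
Log2FC, KO over WT (horizontal axis), of the 10 guidance genes and of the tested genes of 11 marker lists (rows), with the median as a bar and filled points at an edgeR adjusted p under 0.05. The median of the guidance genes (-0.24) is close to that of the GABAergic list (-0.25), and those of the *Hmx3* lineage (-0.36) and neuronal lists (-0.56) are lower. The astrocyte (4.70), mural (2.61) and oligodendrocyte lists (1.46) lie to the right.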

How the data were processed

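RNA sequencing of FACS-enriched cells from 2 *Dnmt1* WT and 2 *Dnmt1* KO libraries was analysed. The authors deposited raw read counts for 55573 Ensembl genes per library. The submitters' processing notes name CASAVA 1.8.2, STAR 2.5.2a, featureCounts 1.5.0-p1 and the builds mm10 and GRCm38, while the annotation release and the strand setting are not given in the sources used here. Reads of overlapping antisense genes could thus be added to a gene, and reads shared by paralogues may be lost.

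GENCODE M21 (GRCm38) held 55480 of the identifiers. The expression filter of edgeR left 16832 genes, which were compared between genotypes with TMM factors and edgeR's quasi-likelihood test (edgeR 4.0.16, R 4.3.3), with Benjamini-Hochberg adjustment over all tested genes and a threshold of 0.05. Standard errors and 95% intervals came from the test statistic. The guidance genes, partner lists and marker lists were chosen with earlier results of these data known. All 10 guidance genes are named, as are *Dnmt1*, every partner called, the partner with the highest mean CPM over the 4 libraries in each list if not called, and defining markers. *Ntn4*, *Gnai3*, *Nell2*, *Flrt3*, *Slc1a3*, *Mki67*, *Unc5a*, *Unc5b*, *Unc5c*, *Grk2* and *Arrb2* were added after their values were seen. Alternatives were DESeq2 1.42.0, limma-voom (limma 3.58.1), other scaling and filters, a block for replicate number, smooth correction of length and GC effects (mgcv 1.9.3), removal of 397 mitochondrial and rRNA-like genes, each library left out, and a threshold of 0.1. The plain edgeR, DESeq2 and limma-voom fits were tested on simulated counts, with changes larger than those of the guidance genes. The other alternatives were not tested in this way. Sequences were taken from RefSeq (GRCm38.p6).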

Additional observations from a re-analysis of the deposited data

How the results depend on the processing

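The number of guidance genes called, 0 as reported, was 2 (*Dcc* and *Robo2*, both lower) with DESeq2, with all genes kept irrespective of counts, with the replicate block, with the length and GC correction and with block and correction together. It was 1 (*Robo2*) with limma-voom, DESeq2's size factors, removal of mitochondrial and rRNA-like genes and the threshold of 0.1. It ranged from 0 to 3 when a library was left out, with *Slit2* as the third gene without WT replicate 2. Over all tested genes, lower calls made up 0.760% with DESeq2's size factors, 0.661% without mitochondrial and rRNA-like genes, 1.91% without a filter, 3.68% with the block, 6.90% with block and correction, 7.15% without WT replicate 1 and 12.0% without WT replicate 2. At the threshold of 0.1, 1956 of the 16832 tested genes were called, 318 of them lower, against 96 lower at 0.05. The count of guidance genes was 0 with library size only, the upper quartile and at least 10 counts in every library. In these fits 10.6%, 8.85% and 6.18% of all tested genes were called, with 0.600%, 0.600% and 0.364% lower in KO. Where a library was left out, the lone library of its genotype was assumed to vary like the others.

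The log2 fold changes of *Cxcr4* and *Ackr3* turned to 0.02 with library size only, a scaling that raised the median of all genes by 0.11. When a library was left out, *Cxcr4* ranged from -0.42 to 0.20, *Ackr3* from -0.23 to 0.06 and *Ntn1* from -0.04 to 0.35. The other 7 guidance genes kept their sign in all 15 alternatives.

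Of the partner genes, 6 were called, against 10 with block and correction together and 3 to 12 with a library left out. *Unc5d* and *Arrb1* lost their calls without either KO library and *Rgma* without KO replicate 2. Over all tested genes 1329 were called, against 2363 without a filter, 883 with at least 10 counts in every library, 2244 with the replicate block, 2795 with the correction, 3229 with both, and 951 to 4209 with a library left out. The largest counts came without WT replicate 2 (4209) and without WT replicate 1 (3878). The cause of these shifts was not tested.

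Deviations of same-numbered libraries from their group means correlated across genes with 0.137, and nothing but the number pairs them. With the block, the log2 fold change was -0.61 (edgeR adjusted p = 0.00614) for *Robo2* and -0.52 (adjusted p = 0.0345) for *Dcc*, and the block changed no other call among the 10 guidance genes. Among the partner genes the block added *Ntn4* (higher) and *Gnai3* (lower), and *Dnmt1* was called lower (edgeR adjusted p = 0.0149). Marker calls also changed with the block. Lower calls went from 3 to 6 for neurons. Higher calls went from 2 to 4 for radial glia and dividing cells, and from 1 to 3 for oligodendrocyte precursors and for microglia. They went from 5 to 6 for oligodendrocytes, 7 to 8 for mural cells, 1 to 2 for meningeal fibroblasts and 0 to 1 for endothelium. Depth limits *Slit3*, *Cxcl12*, *Cxcr4* and *Ackr3* most, with 44 to 132 counts per library.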
